A study of Mus musculus with 6 samples.

Results

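Cpa3, Mcpt8, Prss34, Fcer1a, Ms4a2, Hdc, Prg2 and Epx, 8 genes by which basophils, mast cells and eosinophils are recognised, were examined in RNA sequencing libraries labelled as mouse bone marrow mesenchymal stromal cells. The genes were taken by symbol from the deposited table, where all 8 had a row beside 26980 other genes. There were 6 libraries, 3 labelled Hes1KO (Hes1 KO below) and 3 labelled WT, from mice of the C57BL/6 background. Per the labels' protocols, Hes1fl/+ mice were crossed with Prx1Cre mice, in which the Prx1 promoter drives Cre in limb bud and some craniofacial mesenchyme, to delete Hes1, a transcriptional repressor of the Notch pathway, in mesenchymal stromal cells. The protocols name the heterozygous floxed allele for libraries of both groups, the WT entries do not say whether they carried Cre, and neither the age nor the sex of the animals is given. Nothing in the labels says that libraries came from separate animals or cultures, so p-values measure only the spread between these libraries.

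Basophils, mast cells and eosinophils are granule-bearing cells of allergic and antiparasitic responses whose progenitors depend on the transcription factor GATA2. Basophils and mast cells carry the high-affinity receptor for IgE on their surface, and when antigen cross-links the bound IgE they release histamine, proteases and lipid mediators. Eosinophils store cationic proteins and a peroxidase in their granules. None of these cells is stromal, and in whole-population RNA fewer cells of a type and less of its RNA per cell cannot be told apart.

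The Hes1 KO libraries held 20563116 to 22131465 counts, against 5812598 in WT replicate 2 and 12109170 in WT replicate 3, called the deeper WT libraries and always given in that order. WT replicate 1 held 66167 counts in all, so that 1 count in it was worth 15.1 CPM (the count scaled to a library of 1e6 counts), and its counts are given apart. WT replicate 3 carried 42.5% of its counts in 10 erythroid markers, which lowers the CPM of every other gene there. The 12 stromal markers examined had a summed level of 76.9 to 81.6 CPM in Hes1 KO against 75.4 and 29.8 CPM in the deeper WT libraries. WT replicate 1 had 3 counts of them. The sum was uneven: in Hes1 KO, Eng was at 40.8, 23.9 and 33.9 CPM and Pdgfra at 0.271, 0.0945 and 0.292 CPM. Prrx1, whose promoter drives the Cre, had 0 to 2 counts in any library. Hes1 itself had 185, 220 and 255 counts in the Hes1 KO libraries (8.36, 10.4 and 12.4 CPM), against 310 and 345 in the deeper WT libraries (53.3 and 28.5 CPM) and 0 in WT replicate 1.

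The mean CPM of each of the 8 genes was higher in the Hes1 KO libraries than in WT replicates 2 and 3, and the basophil proteases Prss34 and Mcpt8 had the highest levels per kilobase of the 8 in Hes1 KO. With all 6 libraries, however, none passed the test: edgeR's quasi-likelihood test called 0 of the 8, against 0% of the 14756 genes tested, and 2 of the 8 (Ms4a2 and Hdc) had an unadjusted p under 0.05, against 14.9% of those genes. On the same libraries limma-voom also called 0, and 7 of the 8 had an unadjusted p under 0.05, against 26.0% of genes. DESeq2 called 1, Hdc, against 1.57% of genes called higher in Hes1 KO, and 4 of the 8 had an unadjusted p under 0.05, against 18.6% of genes. Without WT replicate 1, 1 of the 8 rose, again Hdc, against 7.44% of 16190 genes called higher in Hes1 KO. The log2 fold changes of the 8 were all above 0 in both fits. Their median was 1.71 with 6 libraries and 2.05 without WT replicate 1, where the medians of all genes tested were 0.03 and 0.02. All 14 neutrophil markers examined were also above 0 in both fits, with a median of 3.78 with 6 libraries. The median of the monocyte and macrophage markers was 0.68 with 6 libraries. Without WT replicate 1 it was 2.37, with all 12 tested above 0 and 7 called. A shift above 0 was therefore not particular to the 8 genes. WT replicates 2 and 3 differed from each other in opposite directions for the basophil proteases and receptor chains and for the eosinophil genes.

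**Figure D1:**
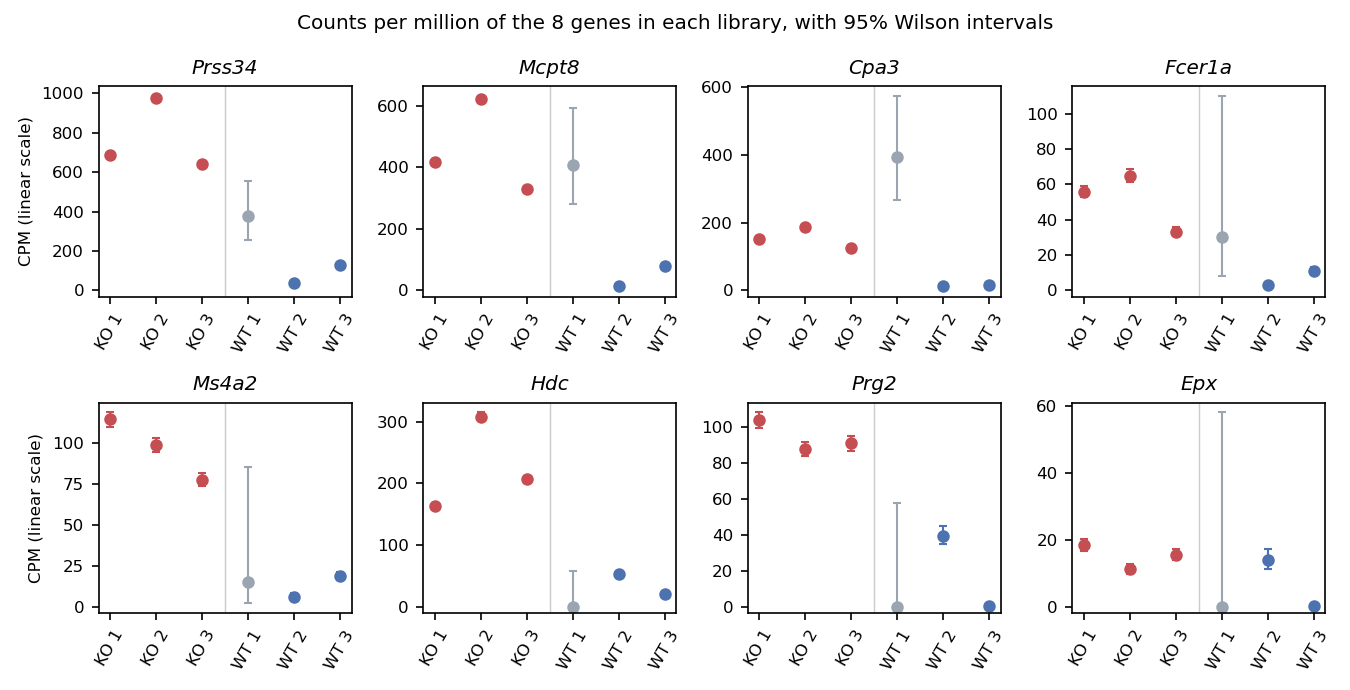
CPM of each gene (linear axes, each panel with its own range) in the 3 Hes1 KO libraries (red), in WT replicate 1 (grey) and in WT replicates 2 and 3 (blue), with Wilson 95% intervals that cover counting error only. Prss34 lies at 644 to 977 CPM in Hes1 KO against 36.6 and 131 CPM in the deeper WT libraries, while Cpa3 is highest in WT replicate 1 (393 CPM from 26 counts) and Epx of WT replicate 2 (13.9 CPM) lies among the Hes1 KO values.

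The stretches just before the gene starts are shown because GATA factors are known regulators of these lineages. They are the 250 bases before the RefSeq start of the gene (GRCm38.p6, which is not the build of the deposited counts), read 5′ to 3′ on the gene's own strand. Capitals mark a GATA core with its usual flanks on either strand, which is the hexamer AGATAA or AGATAG, or else TGATAA or the hexamer TGATAG.
Prss34, chr17:25298144-25298393, plus strand: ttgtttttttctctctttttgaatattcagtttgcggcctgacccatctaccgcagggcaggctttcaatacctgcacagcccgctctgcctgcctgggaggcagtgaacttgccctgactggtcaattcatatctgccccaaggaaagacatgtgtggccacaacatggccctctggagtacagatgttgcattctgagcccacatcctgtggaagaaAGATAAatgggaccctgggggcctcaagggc
Mcpt8, chr14:56085198-56085447, minus strand: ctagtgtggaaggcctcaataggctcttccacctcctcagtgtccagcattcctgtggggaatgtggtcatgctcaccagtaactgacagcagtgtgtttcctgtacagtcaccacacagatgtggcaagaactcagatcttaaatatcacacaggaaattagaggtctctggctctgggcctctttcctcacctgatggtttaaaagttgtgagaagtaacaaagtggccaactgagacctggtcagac
Cpa3, chr3:20242182-20242431, minus strand: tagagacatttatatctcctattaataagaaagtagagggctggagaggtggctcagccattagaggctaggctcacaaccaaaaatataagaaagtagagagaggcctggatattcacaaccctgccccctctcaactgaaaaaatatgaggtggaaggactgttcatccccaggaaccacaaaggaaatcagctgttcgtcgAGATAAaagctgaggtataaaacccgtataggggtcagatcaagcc
Ms4a2, chr19:11623720-11623969, minus strand: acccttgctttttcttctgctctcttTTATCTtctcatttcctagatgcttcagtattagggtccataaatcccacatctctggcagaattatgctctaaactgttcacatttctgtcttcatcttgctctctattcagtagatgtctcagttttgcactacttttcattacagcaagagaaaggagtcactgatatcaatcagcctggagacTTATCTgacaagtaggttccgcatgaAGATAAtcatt
Hdc, chr2:126618679-126618928, minus strand: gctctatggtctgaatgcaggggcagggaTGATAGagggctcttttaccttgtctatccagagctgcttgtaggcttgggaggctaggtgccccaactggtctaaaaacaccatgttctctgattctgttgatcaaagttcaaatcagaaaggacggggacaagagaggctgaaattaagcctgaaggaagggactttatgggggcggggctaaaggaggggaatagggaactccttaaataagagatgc
Of the 8 genes 7 had an entry in the RefSeq promoter table, and Prg2 had none. A hexamer was found in 5 of these 7 windows (Cpa3, Prss34, Fcer1a, Ms4a2 and Hdc), against 26.5% of the 32851 windows of the same length. Ms4a2 held 3 of them, and 6.4% of all windows held 2 or more. The windows of Mcpt8 and Epx held none of these letters. A match of 6 letters is a description of the sequence and not a binding site, and no binding was measured here.

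Prss34, a serine protease of mouse basophils also known as mast cell protease 11, was at 687, 977 and 644 CPM in Hes1 KO against 36.6 and 131 CPM in the deeper WT libraries. WT replicate 1 had 25 counts of it (378 CPM, Wilson 95% interval 256 to 558). Every Hes1 KO library lay above every WT library. On the log2 scale the fold change was 1.85 (SE 0.81) with all libraries and 2.04 (SE 0.97) without WT replicate 1, and neither passed (Benjamini-Hochberg adjusted p = 0.342 and 0.173 in edgeR). Without WT replicate 2 it was 1.23.

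Mcpt8, a serine protease that in mice marks basophils, was at 417, 622 and 330 CPM in Hes1 KO against 15.7 and 80.0 CPM in the deeper WT libraries. Its 27 counts in WT replicate 1 make 408 CPM (Wilson 95% interval 280.5 to 594), inside the Hes1 KO range. The groups therefore overlapped in CPM through that library and did not overlap without it. On the log2 scale the fold change was 1.47 (SE 0.91) with 6 libraries and 2.05 (SE 1.08) without WT replicate 1 (Benjamini-Hochberg adjusted p = 0.475 and 0.209 in edgeR). Without WT replicate 2 it was 0.82.

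Cpa3, the carboxypeptidase stored in the granules of mast cells and basophils, was at 152, 186 and 124 CPM in Hes1 KO against 11.9 and 16.6 CPM in the deeper WT libraries. In WT replicate 1 it had 26 counts, or 393 CPM (Wilson 95% interval 268 to 576), above every Hes1 KO library. At the Hes1 KO levels 8.21 to 12.3 counts would have been made at the depth of that library. On the log2 scale the fold change was 0.60 (SE 0.98) with 6 libraries and 2.53 (SE 0.66) without WT replicate 1, where it narrowly missed the threshold (Benjamini-Hochberg adjusted p = 0.792 and 0.0556 in edgeR). Cpa3 was the 1 gene of the 8 whose direction depended on a library, with a log2 fold change of -0.02 when WT replicate 2 was left out. Without WT replicate 1, limma-voom and DESeq2 both called it higher in Hes1 KO (Benjamini-Hochberg adjusted p = 0.0472 and 0.00291), and each of these tools called 2 of the 8, against 4.34% and 12.7% of all genes.

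The subunits of the IgE receptor were next. Fcer1a encodes the alpha chain that binds IgE, and it was at 55.9, 65.0 and 33.1 CPM in Hes1 KO against 2.92 and 11.1 CPM in the deeper WT libraries. WT replicate 1 had 2 counts of it (30.2 CPM, Wilson 95% interval 8.29 to 110.2). The lowest Hes1 KO library, replicate 3, stood just above that value. Its log2 fold change was 1.57 (SE 0.79) with 6 libraries and 1.71 (SE 0.96) without WT replicate 1, and neither passed (Benjamini-Hochberg adjusted p = 0.379 and 0.233 in edgeR).

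Ms4a2 encodes the beta chain, which amplifies the signal of the receptor. It was at 114, 98.7 and 77.7 CPM in Hes1 KO against 6.37 and 19.0 CPM in the deeper WT libraries and had 1 count in WT replicate 1 (15.1 CPM, Wilson 95% interval 2.67 to 85.6). The point values of the groups did not overlap in any library. Its log2 fold change was 2.0 (SE 0.78) with 6 libraries and 1.80 (SE 0.85) without WT replicate 1 (Benjamini-Hochberg adjusted p = 0.317 and 0.173 in edgeR). For each count of Fcer1a there were 2.05 (exact 95% interval 1.91 to 2.19), 1.52 (1.42 to 1.63) and 2.35 (2.14 to 2.57) counts of Ms4a2 in Hes1 KO. There were 2.18 in WT replicate 2 (1.20 to 4.12) and 1.72 in WT replicate 3 (1.38 to 2.14). The proportion thus varied within Hes1 KO beyond counting error, and both WT values lay inside the Hes1 KO range. For both chains, 1 WT library moved the log2 fold change: without WT replicate 2 it was 0.86 for Fcer1a and 1.35 for Ms4a2, and without WT replicate 3 it was 3.45 and 3.93.

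Hdc, histidine decarboxylase, makes histamine from histidine, and in mouse marrow it is also expressed by immature myeloid cells. It was at 163, 308 and 206 CPM in Hes1 KO against 52.6 and 21.7 CPM in the deeper WT libraries. The count was 0 in WT replicate 1, which allows up to 58.1 CPM (Wilson 95% limit), where the Hes1 KO levels would have given 10.8 to 20.4 counts. Every Hes1 KO library lay above every WT library. Hdc was the 1 gene of the 8 that rose without WT replicate 1, by 2.16 on the log2 scale (SE 0.41, Benjamini-Hochberg adjusted p in edgeR of 0.0338). It was higher in 3 of 3 Hes1 KO libraries than in either of the deeper WT libraries. With all 6 libraries the value was 2.57 (SE 1.01) and did not pass (Benjamini-Hochberg adjusted p = 0.317 in edgeR). The call was also lost without WT replicate 1 when libraries were scaled by their size alone, where the log2 fold change was 2.60 (SE 0.69, Benjamini-Hochberg adjusted p in edgeR of 0.147), a scaling that called 0 genes in all.

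The summed neutrophil markers shared part of the order of libraries with Hdc. The 14 neutrophil markers had a summed level of 49308, 132612 and 60195 CPM across Hes1 KO, against 11048, 15418 and 367 CPM in WT replicates 1, 2 and 3. Hes1 KO replicate 2 had the highest value of both, and WT replicate 2 stood above WT replicate 3 in both in CPM. The latter did not hold for Hdc after TMM scaling (38.6 and 48.8 CPM in the deeper WT libraries). In WT replicate 1 the order differed, as Hdc had 0 counts there. Within the list, Elane (782, 294 and 781 CPM), Mpo (3519, 1049 and 3051) and Prtn3 (718, 265 and 594) were lowest in Hes1 KO replicate 2 among Hes1 KO. The other markers of the list were highest there. The 14 monocyte and macrophage markers had a summed level of 3615 to 4417 CPM in Hes1 KO, against 10625, 963 and 167 CPM in WT replicates 1, 2 and 3. The part of these cells in the rise of Hdc was not tested.

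The eosinophil granule genes of the 8, Prg2 and Epx, had a different pattern in WT. Prg2 encodes major basic protein, the main cationic protein of eosinophil granules, and it was at 104, 87.7 and 91.0 CPM in Hes1 KO, the narrowest spread of the 8 genes relative to the mean (94.2 ± 8.57 SD, n = 3). It was at 39.6 CPM in WT replicate 2 from 230 counts, at 0.578 CPM in WT replicate 3 from 7 counts, with 0 counts in WT replicate 1, where the Hes1 KO levels would have given 5.80 to 6.88. All WT values lay below all Hes1 KO values. The log2 fold change was 2.68 (SE 1.20) with 6 libraries and 2.39 (SE 1.11) without WT replicate 1, and neither passed (Benjamini-Hochberg adjusted p = 0.344 and 0.166 in edgeR).

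Epx, the eosinophil peroxidase, was at 18.3, 11.3 and 15.6 CPM in Hes1 KO (406, 239 and 320 counts). WT replicate 2 had 81 counts of it (13.9 CPM), WT replicate 3 had 3 (0.248 CPM, 0.0843 to 0.728 by Wilson) while WT replicate 1 had 0, where 0.747 to 1.21 counts would be made at the Hes1 KO levels. The groups overlapped, as WT replicate 2 lay above Hes1 KO replicate 2, and the 0 of WT replicate 1 could not show a difference at its depth. The log2 fold change was 1.37 (SE 1.09) with 6 libraries and 1.21 (SE 0.99) without WT replicate 1 (Benjamini-Hochberg adjusted p = 0.56 and 0.394 in edgeR). The value rested on single WT libraries, at 4.36 without WT replicate 2 and 0.55 without WT replicate 3, and Prg2 likewise at 5.88 and 1.92.

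Counting genes by separation, every Hes1 KO library lay above every WT library in CPM for 5 of the 8 genes, against 24.7% of the genes tested. Without WT replicate 1 this held for 7 of 8, all but Epx, against 35.1%. When CPM were scaled by TMM factors, it held for 7 of 8 with 6 libraries, all but Cpa3 (against 22.6%), and for 8 of 8 without WT replicate 1 (against 31.2%).

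Expressed per kilobase of merged exons (GENCODE M21, GRCm38), the order of the levels in Hes1 KO was Prss34 at 631 ± 148 CPM per kilobase, Mcpt8 at 457 ± 150.2, Prg2 at 112 ± 10.2, Cpa3 at 102 ± 20.6, Fcer1a at 51.4 ± 16.4, Hdc at 35.3 ± 11.6, Ms4a2 at 34.5 ± 6.57 and Epx at 5.50 ± 1.30 (mean ± SD, n = 3). Prss34 and Mcpt8, Prg2 and Cpa3, Fcer1a and Hdc, and Hdc and Ms4a2 were neighbours whose levels per kilobase differed by less than their SDs together. Within libraries, Prss34 was above Mcpt8 and Fcer1a above Hdc in every Hes1 KO library. The order of Prg2 and Cpa3, and that of Hdc and Ms4a2, changed between Hes1 KO libraries. In WT replicate 2 the order was another, with Prg2 highest at 47.2 CPM per kilobase, Prss34 at 30.0 and Mcpt8 at 15.7. In WT replicate 3 Prss34 led at 107 CPM per kilobase with Mcpt8 at 80.2, while Prg2 was at 0.690. Merged exons take in all annotated isoforms, so these levels are approximate.

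WT replicates 2 and 3 were compared directly, since they carry the WT side of the 5-library fit. The ratio of CPM in WT replicate 2 to that in WT replicate 3 was 0.196 for Mcpt8 (exact 95% interval 0.156 to 0.243), 0.279 for Prss34 (0.241 to 0.323), 0.264 for Fcer1a (0.150 to 0.439) and 0.335 for Ms4a2 (0.230 to 0.476). For the eosinophil genes it went the other way, at 68.5 for Prg2 (32.7 to 172) and 56.2 for Epx (18.6 to 278). Cpa3 stood closer to equal at 0.715 (0.536 to 0.945), and Hdc was 2.42 times as high in WT replicate 2 (2.05 to 2.87). With the TMM factors of the 5-library fit the ratio for Hdc became 0.789 and for Cpa3 0.233, while Prg2 and Epx stayed high at 22.3 and 18.3. Those of Mcpt8, Prss34, Fcer1a and Ms4a2 fell to 0.0637, 0.0910, 0.0861 and 0.109, below their intervals given above for CPM. The intervals cover counting error of these libraries only and say nothing of other WT samples.

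**Figure D2:**
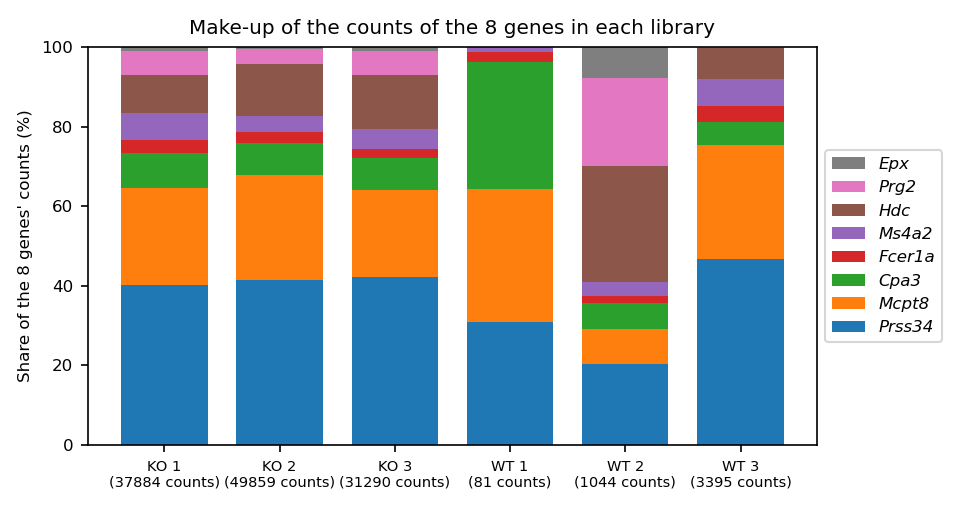
Share of the summed counts of the 8 genes (percent, not corrected for gene length) that each gene took in each library, with the summed counts under the bars. The 3 Hes1 KO libraries have like make-ups, WT replicate 2 has the largest shares of Hdc (29.3%), Prg2 (22.03%) and Epx (7.76%), and WT replicate 1 has no counts of these 3 genes.

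The make-up of the 8 genes showed the same contrast, as the plot of shares by library shows. The Hes1 KO libraries were alike, with Prss34 at 40.2% to 42.3% of the summed counts, Mcpt8 at 21.7% to 26.4%, Hdc at 9.52% to 13.6%, Cpa3 at 7.91% to 8.88% and Prg2 at 3.72% to 6.07%. WT replicate 3 was near them for the proteases, with Prss34 at 46.8% and Mcpt8 at 28.5%, and had Prg2 at 0.206%. WT replicate 2 had Hdc at 29.3% and Prg2 at 22.03%, and Mcpt8 at 8.72%. The 81 counts of WT replicate 1 were split between Mcpt8, Cpa3 and Prss34, at 33.3%, 32.1% and 30.9%, with 2 of Fcer1a and 1 of Ms4a2.

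Each of these WT libraries was then set alone against Hes1 KO, a choice made after the data were seen, in which the lone library is assumed to vary like the Hes1 KO libraries. Against WT replicate 2, 7 of the 8 rose (against 17.1% of genes called higher), and Epx at 0.33 (SE 0.28) did not pass (Benjamini-Hochberg adjusted p = 0.38 in edgeR). The rises there were largest for Mcpt8, by 5.15 (SE 0.69), Prss34, by 4.67 (SE 0.60), and Fcer1a, by 4.41 (SE 0.65). Against WT replicate 3, 4 of the 8 rose (against 14.6%), led by Prg2 by 5.94 (SE 0.31) and Epx by 4.49 (SE 0.43), with Hdc by 2.01 (SE 0.53) and Cpa3 by 1.83 (SE 0.39). The proteases Prss34 and Mcpt8 and both receptor chains did not pass against WT replicate 3, with log2 fold changes of 1.18, 1.14, 0.83 and 0.95. Cpa3, Hdc and Prg2 passed against each. These single-library contrasts share the Hes1 KO libraries.

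**Figure D3:**
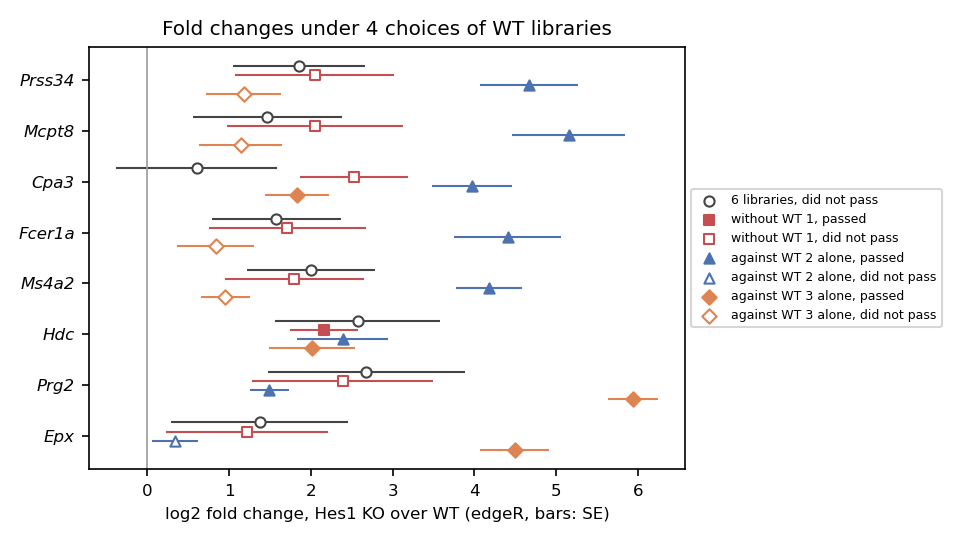
Log2 fold changes (Hes1 KO over WT, edgeR, bars show the SE) of each gene with all 6 libraries, without WT replicate 1, and against WT replicate 2 or WT replicate 3 alone, with filled symbols where the adjusted p passed 0.05. Hdc stays between 2.01 and 2.57 whichever WT libraries are used here, while Mcpt8 ranges from 1.14 to 5.15 and Prg2 from 1.49 to 5.94. Bars and filled symbols of the single-library fits take in no spread between WT libraries.

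Other genes of the same cells were counted from lists that did not include the 8. Of 10 other basophil genes 9 were tested, 0 passed in either fit, and the median log2 fold change was 0.48 with 6 libraries and 0.47 without WT replicate 1, against 0.03 and 0.02 for all genes. The most abundant were Ccl3, a chemokine of activated basophils and many other leukocytes, and Il18rap, a chain of the interleukin-18 receptor. Ccl3 was at 102, 170 and 98.6 CPM in Hes1 KO against 29.4 and 59.5 CPM in the deeper WT libraries, and had 92 counts in WT replicate 1 (1390 CPM). Its log2 fold change was -1.56 (SE 1.07) with 6 libraries and 0.47 (SE 0.75) without WT replicate 1. Il18rap was at 104, 215 and 120 CPM in Hes1 KO against 72.8 and 36.6 CPM in the deeper WT libraries, and had 6 counts in WT replicate 1 (90.7 CPM). The log2 fold change of Il18rap was 0.97 (SE 0.46) and 0.91 (SE 0.46) in these fits. Cd200r3, an activating receptor of mouse basophils and mast cells, was chosen after its values were seen: it was at 54.8, 77.1 and 47.0 CPM in Hes1 KO against 4.47 and 29.5 CPM in the deeper WT libraries, and had 12 counts in WT replicate 1 (181 CPM). Like Mcpt8 it was lower in WT replicate 2 than in WT replicate 3. The log2 fold change of Cd200r3 was -0.14 (SE 0.95) with 6 libraries and 0.57 (SE 1.05) without WT replicate 1.

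Tissue mast cell genes were near 0. Of 11 listed, 4 had a row under the symbol used, the other 7 were not analysed here, and the 4 summed to at most 5.04 CPM in any library. Gzmb, a granzyme also of cytotoxic lymphocytes, was the 1 tested, at 1.70 to 3.26 CPM in Hes1 KO against 2.06 and 4.38 CPM in the deeper WT libraries. Cma1, mast cell chymase, had 3, 6 and 2 counts across Hes1 KO against 0, 0 and 8 across WT. Tpsb2, a mast cell tryptase, had 2, 0 and 2 counts across Hes1 KO against 0 in each WT library. Cpa3, Hdc, Fcer1a and Ms4a2, the genes of the 8 that mast cells express, are also expressed by basophils.

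Of 9 other eosinophil genes 8 were tested without WT replicate 1, the log2 fold change was above 0 for 6 and below 0 for 2, and 0 passed (median log2 fold change 0.73). The most abundant were Ear2, an eosinophil-associated ribonuclease with near-identical copies among which reads may be split, and Alox15, a lipoxygenase. Ear2 was at 22.8, 76.5 and 32.0 CPM in Hes1 KO against 9.98 and 0.413 CPM in the deeper WT libraries, lower in WT replicate 3 like Prg2 and Epx. Its log2 fold change without WT replicate 1 was 3.22 (SE 1.05, Benjamini-Hochberg adjusted p in edgeR of 0.0834). Prg3, chosen after its values were seen, did not share that pattern. It was at 8.54, 6.33 and 7.34 CPM in Hes1 KO against 10.3 and 4.05 CPM in the deeper WT libraries. The log2 fold change of Prg3 without WT replicate 1 was -0.42 (SE 0.26). Alox15 was at 30.6, 42.0 and 29.7 CPM in Hes1 KO against 4.47 and 16.2 CPM in the deeper WT libraries, lower in WT replicate 2. WT replicate 1 had 6 counts of Alox15 (90.7 CPM), above every Hes1 KO library. Its log2 fold change was 0.002 (SE 0.83) with 6 libraries and 0.57 (SE 0.88) without WT replicate 1.

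**Figure D4:**
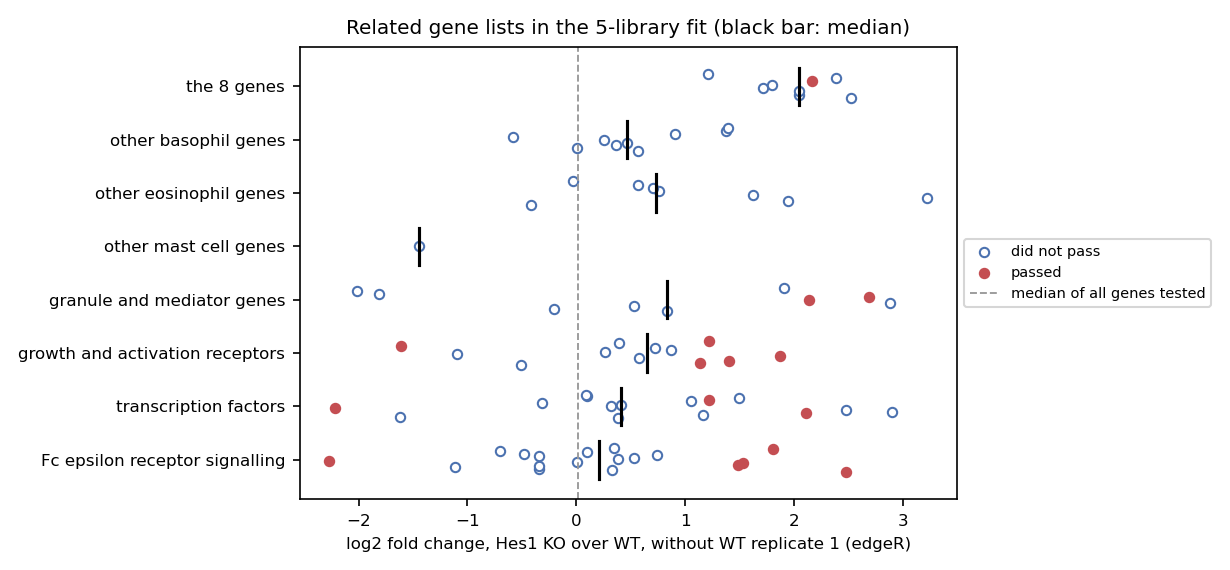
Log2 fold changes without WT replicate 1 (edgeR, Hes1 KO over WT) of the tested genes of each list, filled where the adjusted p passed 0.05, with the list's median as a black bar and the median of all genes as a dashed line. The 8 genes lie between 1.21 and 2.53, and 1 of them passed.

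Among genes for granule contents and lipid mediators, 2 of 9 tested rose without WT replicate 1 and 0 fell, where 7.44% of all genes rose and 8.09% fell. They were Alox5ap, which presents arachidonate to 5-lipoxygenase, by 2.69 (SE 0.46), and Alox5, that enzyme, by 2.14 (SE 0.48), with adjusted p = 0.0311 and 0.0427 (Benjamini-Hochberg, edgeR). Both are also abundant in neutrophils and macrophages, whose summed levels are given above, and their part was not tested. With 6 libraries 0 of the list passed.

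Among 12 growth and activation receptors, 4 rose and 1 fell without WT replicate 1, against 7.44% and 8.09% of all genes. Il3ra and Csf2ra, the alpha chains of the receptors for interleukin-3 and GM-CSF, rose by 1.14 (SE 0.24) and 1.87 (SE 0.39), and the interferon gamma receptor chain Ifngr1 rose by 1.22 (SE 0.22). Il7r, the interleukin-7 receptor of lymphoid progenitors, fell by 1.61 (SE 0.34). The remaining gene that rose, named after its values were seen, was Csf2rb, the beta chain shared by the receptors for interleukin-3, interleukin-5 and GM-CSF, by 1.40. The adjusted p of these 5 lay between 0.0318 and 0.0456 (Benjamini-Hochberg, edgeR). In WT replicate 1 Csf2rb had 44 counts (665 CPM), above every Hes1 KO library. Its log2 fold change with 6 libraries was 0.36 (SE 0.63). Kit, the stem cell factor receptor that mast cells keep, was chosen after its values were seen and did not pass, at 89.9, 52.6 and 79.6 CPM in Hes1 KO against 140 and 32.3 CPM in the deeper WT libraries.

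Among 15 transcription factors of these lineages, 2 rose and 1 fell without WT replicate 1, counts close to the 7.44% and 8.09% of all genes. Cebpa, a factor of granulocyte and monocyte progenitors, rose by 2.11 (SE 0.23) and Xbp1, needed by eosinophil precursors and secretory cells, by 1.22 (SE 0.26). Zfpm1, the GATA1 cofactor FOG-1 of red cell and platelet precursors, fell by 2.21 (SE 0.37). Their adjusted p were 0.0294, 0.0393 and 0.0304 (Benjamini-Hochberg, edgeR). In WT replicate 1 Cebpa had 29 counts (438 CPM), above every Hes1 KO library. Its log2 fold change with 6 libraries was 0.28 (SE 0.84). Gata2, the factor of basophil and mast cell progenitors, was chosen after its values were seen: it was at 122, 140 and 106 CPM in Hes1 KO against 29.9 and 61.9 CPM in the deeper WT libraries, with 20 counts in WT replicate 1 (302 CPM), and its log2 fold change of 0.39 (SE 0.71) did not pass.

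Of 18 genes that carry the signal of the IgE receptor, 4 rose and 1 fell without WT replicate 1, where 7.44% of all genes rose and 8.09% fell (median log2 fold change 0.21, against 0.02 for all genes). Lcp2 and Lat2, adaptors downstream of the kinase Syk, rose by 1.53 and 1.49 (SE 0.29 and 0.30), and the calcium channel Orai1 rose by 1.81 (SE 0.33). The phospholipase Plcg1 fell by 2.27 (SE 0.27). The remaining gene that rose, also named after its values were seen, was Fcer1g, the gamma chain that the IgE receptor shares with IgG receptors of other myeloid cells, by 2.47 (SE 0.51). The adjusted p of these 5 lay between 0.0294 and 0.0382 (Benjamini-Hochberg, edgeR). Fcer1g was at 281, 506 and 302 CPM in Hes1 KO against 103 and 16.8 CPM in the deeper WT libraries, higher in WT replicate 2, unlike Fcer1a and Ms4a2. WT replicate 1 had 36 counts of Fcer1g (544 CPM), above every Hes1 KO library. With 6 libraries its log2 fold change was 1.16 (SE 0.78) and did not pass. Lat2 had 14 counts in WT replicate 1 (212 CPM), also above every Hes1 KO library, and its 6-library log2 fold change was 0.68 (SE 0.56).

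With 6 libraries 0 genes of these 7 lists passed, as did 0 of all 14756 (edgeR), where 2200 had an unadjusted p under 0.05. Libraries of the 5-library fit also differed in sex chromosome transcripts: the Y-linked Ddx3y reached 1.27, 61.9 and 0.146 CPM across Hes1 KO against 205 and 42.2 CPM in the deeper WT libraries. Xist, made from the inactive X chromosome, reached 1221, 11.0 and 1004 CPM across Hes1 KO against 3.10 and 71.9 CPM, so that WT replicate 3 held both transcripts. The part of sex in the values above was not tested.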

How the data were processed

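The authors' deposited table holds whole-number read counts per gene symbol, which that table’s own name credits to featureCounts. GRCm39, edgeR and limma are named in the submitters' processing notes, while no source used here gives the aligner, annotation or strand setting. Groups and replicate numbers came from the sample titles. The test on these counts was that of edgeR 4.0.16 under R 4.3.3: filterByExpr, TMM scaling, quasi-likelihood test (legacy option off), Benjamini-Hochberg adjustment over all genes tested and a threshold of 0.05. Standard errors are approximate, from the fold change and its F statistic. The same fit without WT replicate 1 is the 5-library fit. CPM use library totals without TMM factors. Intervals are 95% and cover counting error. DESeq2 1.42.0, limma-voom (limma 3.58.1), other scalings and filters, the replicate block and leaving out each library were alternatives. The scripts were tested on simulated data. Of each related list up to 4 passing genes were named, otherwise the 2 most abundant. Genes and lists were chosen with earlier results of these data known. Promoter sequences are RefSeq's (GRCm38.p6).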

Additional observations from a re-analysis of the deposited data

How the results depend on the processing

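With 6 libraries, 0 of the 8 genes and 0 genes in all passed when any library other than WT replicate 1 was left out, with RLE or TMMwsp scaling, library size alone, other filters, limma-voom, legacy dispersions, erythroid markers taken out, or an adjusted p of 0.1. Leaving out each library in turn gave 0 to 2513 genes and 0 to 1 of the 8, the higher values without WT replicate 1. DESeq2 called 813 genes and 1 of the 8. Without WT replicate 1, RLE scaling gave 2430 genes, TMMwsp 2451 and erythroid markers taken out 2450, with 1 of the 8 each, while limma-voom gave 1440, DESeq2 4997 and an adjusted p of 0.1 5473, with 2 of the 8 each. WT replicate 2 alone gave 6210 genes and 7 of the 8, and WT replicate 3 alone 4809 and 4. The last 2 contrasts, the erythroid marker settings and the threshold of 0.1 without WT replicate 1 were chosen after seeing the data. The log2 fold change of Cpa3 was -0.016 without WT replicate 2, and the cause was not tested. Over the libraries left out in turn the log2 fold change ranged from -0.016 to 2.53 for Cpa3, 0.82 to 2.05 for Mcpt8, 1.23 to 2.59 for Prss34, 0.86 to 3.45 for Fcer1a, 1.35 to 3.93 for Ms4a2, 2.06 to 2.87 for Hdc, 1.92 to 5.88 for Prg2 and 0.55 to 4.36 for Epx. Scaling by library size alone moved the median of all genes from 0.03 to 0.26, and from 0.02 to 0.44 without WT replicate 1. Same-numbered libraries correlated at 0.164, 0.00644 and 0.237 in their deviations from group means, against -0.218 to 0.0417 for differently numbered ones. Replicates 1 and 3 thus had the highest values, and whether the numbers pair the libraries was not tested. The main fit did not pair them. The replicate block, which pairs them by number, gave 0 genes with 6 libraries and 0 without WT replicate 1. In the latter Hdc was at 2.34 (SE 0.49, adjusted p = 0.272 in edgeR). Depth limits WT replicate 1, where 3 counts make 45.3 CPM.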

Other observations

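The pattern of genes over the 5 deeper libraries was set against the summed CPM of the 8 genes. The measure was the root mean square difference of centred log2(CPM + 0.5) values. All genes of the lists used here, cell type markers included, were left out beforehand, and 14181 other genes were compared. The nearest of these were Ndufa13 at 0.163, Atp5j2 at 0.164, E230016K23Rik at 0.184, Klra17 at 0.189, Siglec1 at 0.196 and Ndufb7 at 0.196. Ndufa13, a subunit of respiratory complex I, was at 99.7, 139 and 100.8 CPM in Hes1 KO against 11.2 and 22.05 CPM in the deeper WT libraries. Siglec1 had 0 and 1 counts in the deeper WT libraries, E230016K23Rik had 0 and 4 and Klra17 had 6 and 14, so the places of these 3 rest on few counts. Of these 6 genes, 3 stayed among the nearest with log2(CPM + 1) and 3 with TMM-scaled CPM. Among the 8 genes themselves Cpa3 was nearest to the sum, at 0.195, and Prg2 and Epx were farthest, at 1.91 and 1.65. The sum is dominated by the most abundant members, and 5 libraries are too few for a test of likeness.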
